A study of Sus scrofa with 30 samples.

Results

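The 2 vascular microRNAs miR-143 and miR-145 were followed, as both arms, in the plasma of irradiated Göttingen minipigs. The members were taken by name: every listed pig (ssc) miRNA that carries exactly one of these numbers right after ssc-miR-. This gave 4 of the 411 miRNAs listed: ssc-miR-143-3p, ssc-miR-143-5p, ssc-miR-145-5p and ssc-miR-145-3p. All 4 of these 4 passed the filter on low values, as did all 411 miRNAs. Libraries with a sum under 1000 counts were left out, which kept 24 of 30.

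Small RNA was sequenced from plasma of 3 male minipigs that were 4 months old and received 2.2 Gy of total body irradiation (TBI) from a cobalt source. Each animal gave 1 library at 2 time points before TBI, 7 days (C7) and 1 day (C1) earlier, and at 8 after it, the first at 6 h (0d) and the rest named by their day, from 1d through 3d, 7d, 10d and 14d to 17d and 20d. In the study's phases, Early runs from 0d to 7d, Mid holds 10d with 14d, Late is 17d and LR is 20d. These phases were drawn from the very libraries compared, which means that phase and value are linked by construction. All 3 animals were anaesthetized with isoflurane for blood collection, received dextrose under the skin after TBI as the vehicle arm of a countermeasure study, and had supportive care. No unirradiated animal was in the design, so time under repeated bleeding, vehicle and care cannot be told apart from irradiation. None of the 3 animals survived, and at a dose lethal to most animals they are a model of the lethal course only.

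Minipig 3 gave no usable library after 1d: its 6 later libraries held between 0 and 17 counts, with 0 counts of the 4 members. The values from 3d to 20d therefore come from minipigs 1 and 2. The 24 libraries used held 24341 to 550316 counts, with 6 pre-TBI, 10 Early, 4 Mid, 2 Late and 2 LR libraries. The 2 Late libraries held 29159 and 63441 counts and the smallest library of all was C7 of minipig 1. At the minimum of 100000 counts, 5 pre-TBI, 10 Early, 1 Mid, 0 Late and 2 LR libraries remain.

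A miRNA precursor is cut into a duplex, and either strand, called the 5p or the 3p arm, can be loaded into an Argonaute protein, where bases 2 to 8 (the seed) lead target recognition. miR-143 and miR-145 come from neighbouring hairpins and are known as abundant miRNAs of vascular and visceral smooth muscle, where they hold cells in the contractile state. Guide strands are usually miR-143-3p and miR-145-5p, and the other arms are the less loaded strands. In plasma, miRNAs come from blood cells, vessel wall and organs, and a change in bulk plasma cannot tell fewer releasing cells from less RNA per cell.

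Seeds are shown because they separate both guide strands, which have unlike seeds. They are given in capitals, as bases 2 to 8 of the sequences that the study listed:
miR-143-3p: GAGAUGA
miR-145-5p: UCCAGUU
In the RefSeq pig annotation (assembly Sscrofa11.1), both host entries, MIR143 and MIR145, were matched, with 0 genes listed between them. That assembly is not the build (ssc5) used for the counts, so no coordinates are given.

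The members differed in abundance. All levels below are TMM-normalized CPM (counts scaled to 1e+06 per library), a share of the miRNA counts of a library, and log2 values are of CPM. By mean CPM over the 24 libraries ssc-miR-143-3p (1152) stood at rank 137 of 411, ssc-miR-145-5p (432) at rank 257, ssc-miR-143-5p (362) at rank 278 and ssc-miR-145-3p (150) at rank 361. The presumed guide strand of each hairpin was thus the higher arm on average. Across libraries the CPM of ssc-miR-143-3p ranged 7.18-fold, from 415 to 2982 with a median of 973. ssc-miR-143-5p was the steadiest of the 4, with a 2.75-fold range from 225 to 618. ssc-miR-145-5p ranged 3.32-fold, from 266 to 884, and ssc-miR-145-3p 33.3-fold, from 15.7 to 522. The last range rests on few reads, since ssc-miR-145-3p had 1 to 80 counts per library (median 23), against 15 to 997 (median 230) for ssc-miR-143-3p.

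**Figure D1:**
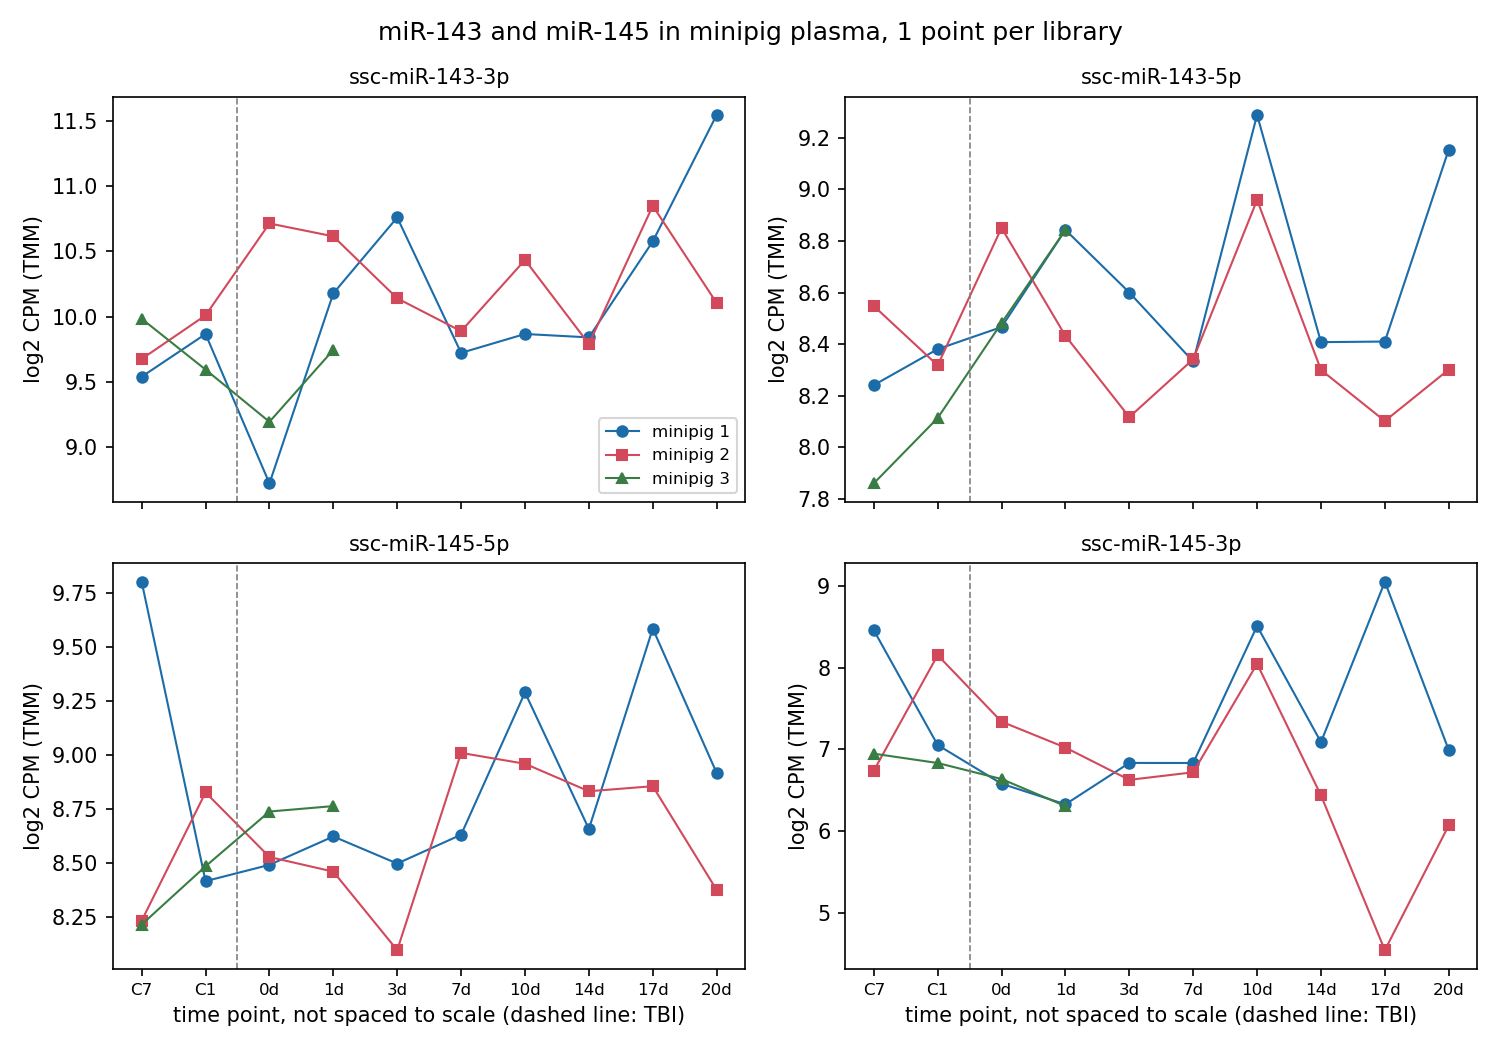
Log2 CPM (TMM-normalized) of the 4 members by time point, in order but not spaced to scale, with 1 line per minipig and a y axis of its own in each panel. The dashed line marks TBI, minipig 3 ends at 1d, and ssc-miR-143-3p of minipig 1 reaches its highest value, 11.55, at 20d.

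Before irradiation the members were unequal in their spread. Over the 6 pre-TBI libraries the SD of log2 CPM was 0.20 for ssc-miR-143-3p and 0.24 for ssc-miR-143-5p, which is smaller than for most miRNAs: 2.43% and 4.38% of the 411 had a smaller one. The SD was 0.60 for ssc-miR-145-5p and 0.74 for ssc-miR-145-3p, near the median of 0.55 over all miRNAs. C1 against C7 served as the background of the same measurement without radiation. The log2 differences were 0.08, 0.03, -0.23 and 0.23 for miR-143-3p, miR-143-5p, miR-145-5p and miR-145-3p, and edgeR's quasi-likelihood test with Benjamini-Hochberg adjustment gave an adjusted p of 0.997 for each of the 4. Of all miRNAs 0.73% had an unadjusted p under 0.05 in this comparison.

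ssc-miR-143-3p, the guide strand that targets regulators of smooth muscle proliferation, rose in no phase by the adjusted test, but its highest mean levels came last. Its pre-TBI CPM at C7 and C1 was 737 and 927 in minipig 1, 811 and 1024 in minipig 2, and 1005 and 766 in minipig 3. At 0d the 3 minipigs had 415, 1673 and 579, so the first library after TBI held the lowest level of all in one animal and a level above the whole pre-TBI range in another. At 1d they had 1152, 1562 and 851. Minipig 1 had 1727 at 3d and 838 at 7d, and minipig 2 had 1121 and 941. At Mid both animals stayed close to the pre-TBI range, with 927 (10d) and 910 (14d) in minipig 1 and 1377 and 878 in minipig 2, of which only 1377 lay above all pre-TBI libraries. At 17d the CPM was 1520 and 1838, and at 20d it was 2982 and 1094, in minipigs 1 and 2. Both Late libraries and both LR libraries thus lay above all 6 pre-TBI libraries, with the second LR library only just above. Of all 411 miRNAs, 6.81% lay above every pre-TBI library at Late and 6.57% at LR.

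The fitted log2 change of ssc-miR-143-3p against pre-TBI was 0.30 at Early (SE 0.28), 0.21 at Mid (SE 0.35), 0.93 at Late (SE 0.42) and 1.21 at LR (SE 0.41). The Late and LR changes had unadjusted p values of 0.0374 and 0.00687 and adjusted p values of 0.192 and 0.403 in edgeR's quasi-likelihood test. Among all miRNAs 22.6% at Late and 5.6% at LR had an unadjusted p under 0.05, and 4.38% and 0% an adjusted one, so at Late such a p was common in this table. Fitted by single time point, the change was 0.93 (SE 0.43) at 17d and 1.21 (SE 0.41) at 20d, with adjusted p values of 0.200 and 0.443. The LR value rested mainly on minipig 1, whose own change at 20d was 1.84 on the log2 scale against 0.26 in minipig 2. Without minipig 1 the LR change was 0.28, and without minipig 2 it was 1.61. At Late the own changes were alike, 0.87 and 1.01, and with the minipig as a block the Late change had an unadjusted p of 0.0912. Without minipig 2 the Late change was 0.51. With scaling to library size only it was 0.64 (unadjusted p 0.213), and with C7 alone as the baseline 0.82 (unadjusted p 0.151). Of 14 settings, the main one included, 4 gave the Late change an unadjusted p under 0.05. At LR 13 of 15 did so, but all of them rest on the same 2 LR libraries or on 1 of these. The phases share the 6 pre-TBI libraries, so their changes are not independent of each other. Set against the other phases directly, LR exceeded Early by 0.91 (SE 0.38, adjusted p 0.997) and Mid by 1.00 (SE 0.45, adjusted p 0.593), where 0.243% and 0% of all miRNAs had an adjusted p under 0.05.

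ssc-miR-143-5p, the passenger strand of the same hairpin, had the smallest range of the 4, with its highest levels at 10d and, in minipig 1 alone, at 20d. Its pre-TBI CPM was 225 to 367 (log2 8.24 ± 0.24, SD, n = 6). The Early libraries lay between 8.12 and 8.85 on the log2 scale (median 8.47), overlapping the pre-TBI libraries, and the Late libraries at 8.41 and 8.10 lay inside that range. At 10d the CPM was 618 in minipig 1 and 490 in minipig 2, both above every pre-TBI library. At 14d it was 332 and 307. At 20d it was 562 and 308, so minipig 1 lay above every pre-TBI library and minipig 2 did not. The share of all miRNAs that lay above every pre-TBI library at 10d was not counted. The change of ssc-miR-143-5p at 10d was 0.89 on the log2 scale (SE 0.28). Its unadjusted p was 0.00446 and its adjusted p 0.610 in edgeR's quasi-likelihood test. At 10d 7.3% of all miRNAs had an unadjusted p under 0.05, and 2.92% had one with a higher level. By phase the changes were 0.30 (SE 0.19) at Early, 0.52 (SE 0.24) at Mid, -0.02 (SE 0.34) at Late and 0.54 (SE 0.28) at LR. The Mid change had an unadjusted p of 0.0407 and an adjusted p of 0.808, in a phase where 5.35% of all miRNAs had an unadjusted p under 0.05. It was 0.37 without minipig 1 (unadjusted p 0.236) and 0.011 in libraries of at least 100000 counts (unadjusted p 0.971), of which Mid has 1. The 10d values stood for 26 and 21 counts.

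ssc-miR-145-5p, the guide strand known for its action on smooth muscle differentiation genes, passed the adjusted test in no phase, and the unadjusted one at Mid and Late only when the smallest library was left out. Its pre-TBI CPM was 884 and 334 in minipig 1, 293 and 446 in minipig 2, and 290 and 351 in minipig 3, at C7 and C1. The 884 was the highest value of any library and came from the smallest one, where it stood for 18 counts. At 17d the CPM was 760 and 455, from 16 and 29 counts, and at 20d it was 476 and 324. At Early 0 of the 4 members reached an unadjusted p under 0.05 in the fit of all phases, against 18.7% of the whole table. The log2 changes were -0.09 (SE 0.22) at Early, 0.25 (SE 0.28) at Mid, 0.54 (SE 0.36) at Late and -0.03 (SE 0.34) at LR, with adjusted p values of 0.813, 0.970, 0.357 and 0.966 in edgeR's quasi-likelihood test. Without that smallest library (C7 of minipig 1) the change was 0.47 at Mid and 0.61 at Late, with unadjusted p values of 0.0324 and 0.0284 and adjusted ones of 0.463 and 0.117. The Early and LR values changed sign under other settings. Late and Early differed by 0.64 (SE 0.34), with an adjusted p of 0.139, the lowest of all 24 phase pairs of the members. In that contrast 31.9% of all miRNAs had an adjusted p under 0.05.

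ssc-miR-145-3p, the less abundant strand of miR-145, was the most variable member. Before TBI its CPM was 344 and 125.2 in minipig 1, 99.2 and 277 in minipig 2, and 116 and 106 in minipig 3, at C7 and C1. The 10 Early libraries lay between 71.6 and 154, inside or below the pre-TBI range, with a log2 mean of 6.72 ± 0.31 (SD, n = 10) against 7.36 ± 0.74 (SD, n = 6). The log2 medians were 6.68 and 7.00, closer together than the means. Against their own pre-TBI means, all 3 minipigs were lower at Early, by -1.11, -0.52 and -0.42 on the log2 scale. The pre-TBI mean of minipig 1 includes the 344 at C7, which stood for 7 counts in the smallest library. Without that library the fitted Early change was -0.63. At 10d the CPM was 356 and 257, at 14d 128 and 79.1, and at 20d 120 and 59.6. At 17d it was 522 in minipig 1 and 15.7 in minipig 2, the highest and the lowest of all 24 libraries. The latter stood for 1 count of 63441, against 103 of 486607 in the pre-TBI libraries of the same animal. That is a ratio of 0.0745, with an exact 95% interval of 0.00187 to 0.424 that covers counting error only. The interval does not allow for the choice of the lowest library. The fitted changes were -0.66 (SE 0.39) at Early, 0.25 (SE 0.53) at Mid, 0.38 (SE 0.77) at Late and -0.85 (SE 0.63) at LR. The adjusted p values in edgeR's quasi-likelihood test were 0.346, 0.978, 0.808 and 0.593. The Early change had an unadjusted p of 0.104. It was -0.65 with only the pre-TBI and Early libraries in the fit and -0.62 in libraries of at least 100000 counts, each with an unadjusted p of 0.0257 and with adjusted ones of 0.142 and 0.153. The Late value is no common change of both animals: without minipig 1 it was -3.27, which rests on 1 count, and without minipig 2 it was 1.61.

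**Figure D2:**
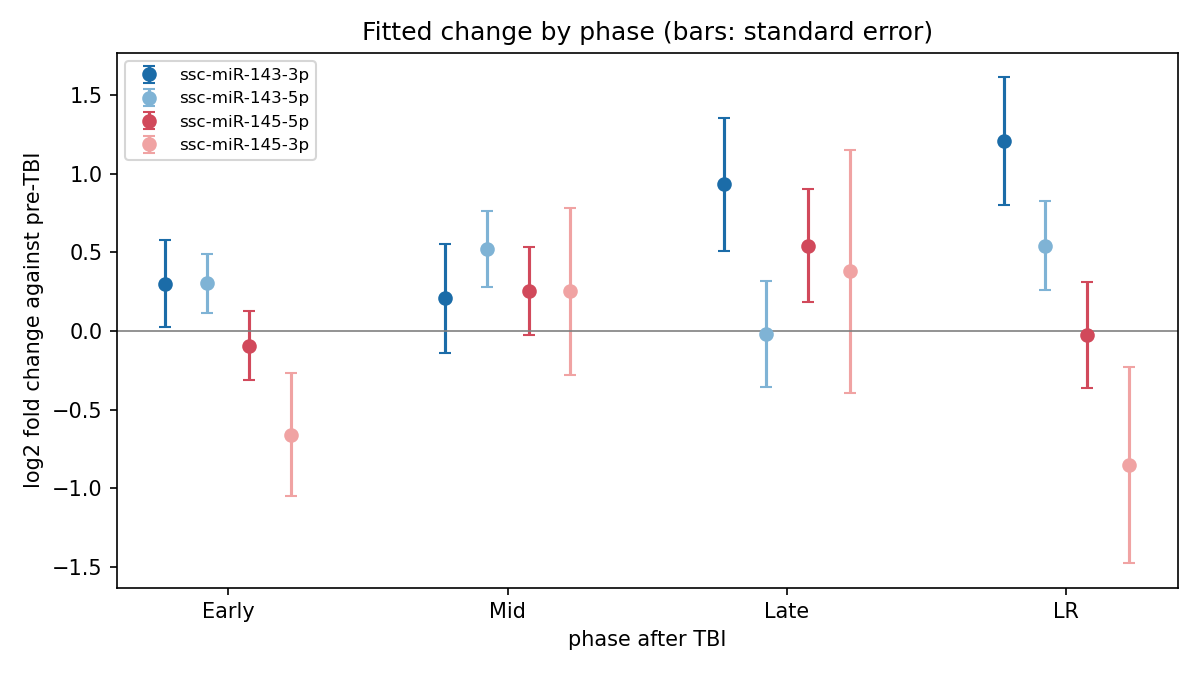
Fitted log2 fold change against pre-TBI (y axis) of the 4 members in each phase after TBI (x axis); points are edgeR estimates and bars their standard errors. The tallest point is ssc-miR-143-3p at LR (1.21), and the ssc-miR-145-3p bars are the longest at Late, with an SE of 0.77.

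Of the 16 member changes by phase, 0 passed an adjusted p of 0.05 and 3 had an unadjusted p under it. DESeq2 likewise gave 0 adjusted calls, with 3 unadjusted ones by phase and 5 by time point, and so did every alternative run on the phase and time-point fits. Of the 32 changes by time point, 0 passed when adjusted and 3 had an unadjusted p under 0.05. From 0d to 20d, the share of all miRNAs with an unadjusted p under 0.05 was 8.52%, 12.2%, 8.52%, 8.27%, 7.3%, 9%, 23.8% and 7.06%. With an adjusted p the share was highest at 17d, 4.87%, followed by 1.22% for 3d, 0.73% for 20d and 0.243% for 14d, and it was 0% for the others. The median log2 change over all 411 miRNAs was 0.02, 0.05, 0.08 and -0.01 in the 4 phases.

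The members were next ordered by mean level at the 10 time points, to see which neighbours in the order differed beyond their spread. For ssc-miR-143-3p the order ran from 20d (log2 mean 10.83 ± 1.02, SD, n = 2) through 17d (10.71 ± 0.19) and 3d (10.45 ± 0.44) down to C7 (9.73 ± 0.23, n = 3) and 0d (9.54 ± 1.04, n = 3). None of its 9 gaps between neighbours exceeded the larger SD of the pair. The same count was 0 of 9 for ssc-miR-143-5p, which ran from 9.12 ± 0.23 at 10d to 8.22 ± 0.34 at C7. It was 0 of 9 for ssc-miR-145-3p, from 8.28 ± 0.33 at 10d to 6.53 ± 0.65 at 20d. For ssc-miR-145-5p 1 of 9 gaps did so, that between 10d (9.12 ± 0.23) and 7d (8.82 ± 0.27), with 17d on top (9.22 ± 0.52) and 3d at the bottom (8.30 ± 0.28). Both miR-145 arms and miR-143-5p thus stood first or second in the order at 10d.

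Library depth moved with the miR-145-5p level, and with that of miR-145-3p in minipig 1. In minipig 2 the relation of miR-145-3p to depth was unclear, because 1 of its smaller libraries held 1 count. Over the 24 libraries Spearman's rho between log2 CPM and log2 total counts was 0.04 for ssc-miR-143-3p and 0.05 for ssc-miR-143-5p. It was -0.58 for ssc-miR-145-5p and -0.42 for ssc-miR-145-3p, and 6.57% and 15.3% of the 411 miRNAs had a lower value. Over all miRNAs the median was 0.05, with 10% of them below -0.51 and another 10% above 0.48. These values are descriptions over libraries that share animals. In minipig 1 the total ranged 16.5-fold, while the counts of ssc-miR-145-3p ranged 5.71-fold, from 7 to 40. The slope of log2 counts on log2 total in that animal was 0.43 for ssc-miR-145-3p and 0.76 for ssc-miR-145-5p, against 1.20 and 1.13 for the 3p and 5p arms of miR-143. In minipig 2, also with 10 libraries, the slope was 1.06 for ssc-miR-145-3p, 0.84 for ssc-miR-145-5p and 0.97 for each arm of miR-143. The 1.06 includes the 17d library, with 1 count of 63441. The ssc-miR-145-3p CPM of this animal was 257 in its smallest library (10d), 277 at C1 and 59.6 in its deepest (20d). How far that slope depends on the 1 count was not tested. The highest miR-145 levels of minipig 1 were in its 3 smallest libraries (C7, 17d and 10d). The part of depth in the miR-145 levels at 10d and 17d was not tested.

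**Figure D3:**
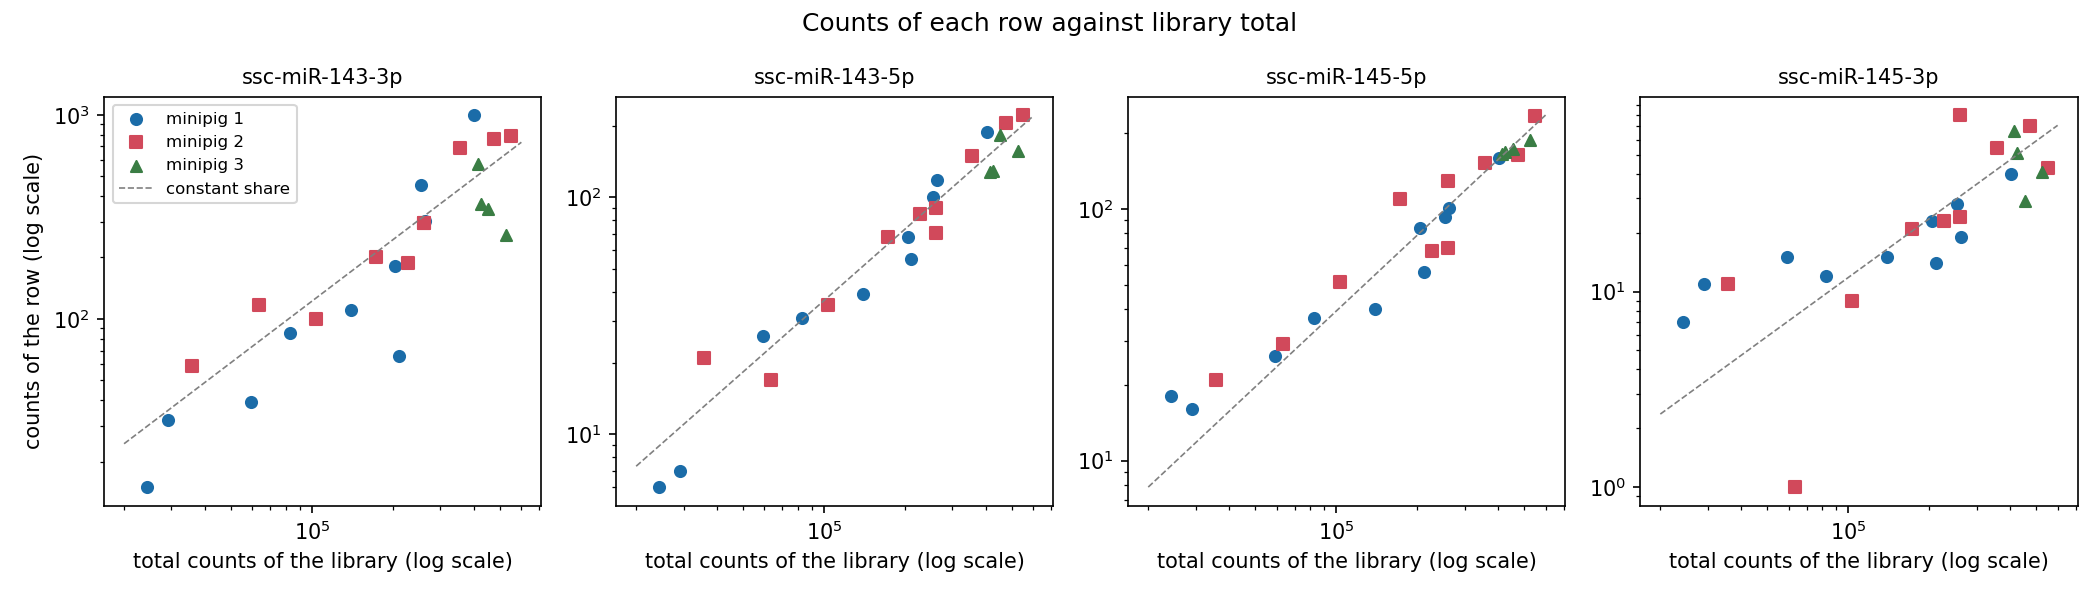
Counts of each member (y axis, log scale) against the total counts of the library (x axis, log scale), 1 point per library, with a dashed line for a constant share of the total. The points of ssc-miR-143-3p scatter about the line at all depths, while those of ssc-miR-145-3p lie above it in most small libraries, apart from the 1 count of minipig 2 at 17d.

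The arm ratio within a library does not depend on how libraries are scaled. It was taken as 3p over 5p counts, with 0.5 added to each. For miR-143 it lay above 1 in all 24 libraries, from 1.20 to 6.71 with a median of 2.83. For miR-145 it lay below 1 in all 24, from 0.0508 to 0.697 with a median of 0.319. The arms of both hairpins thus kept their order in every library.

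The miR-143 ratio was 2.20 to 4.46 before TBI, 1.20 to 4.61 at Early and 1.49 to 2.83 at Mid. It was 4.33 and 6.71 at Late and 3.55 and 5.29 at LR. Within the minipigs the log2 ratio was higher than before TBI by 1.03 at Late and by 0.71 at LR, in both animals each time. The exact two-sided permutation p was 0.111 for both (adjusted over 16 ratio tests, 0.427), which is the smallest p that 9 arrangements allow. The miR-145 ratio was 0.306 to 0.622 before TBI and 0.170 to 0.429 at Early. Within the minipigs it was lower at Early by -0.67 on the log2 scale, in 3 of 3 animals, with an exact permutation p of 0.00741 and an adjusted p of 0.119. At LR it was 0.186 and 0.254, a log2 difference of -0.97 (exact permutation p 0.111, adjusted 0.427), and at Late 0.0508 and 0.697 stood far apart. At Early the difference was -0.69, -0.74 and -0.58 when minipig 1, 2 or 3 was left out in turn. The lower 3p share at Early did not pass after adjustment.

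**Figure D4:**
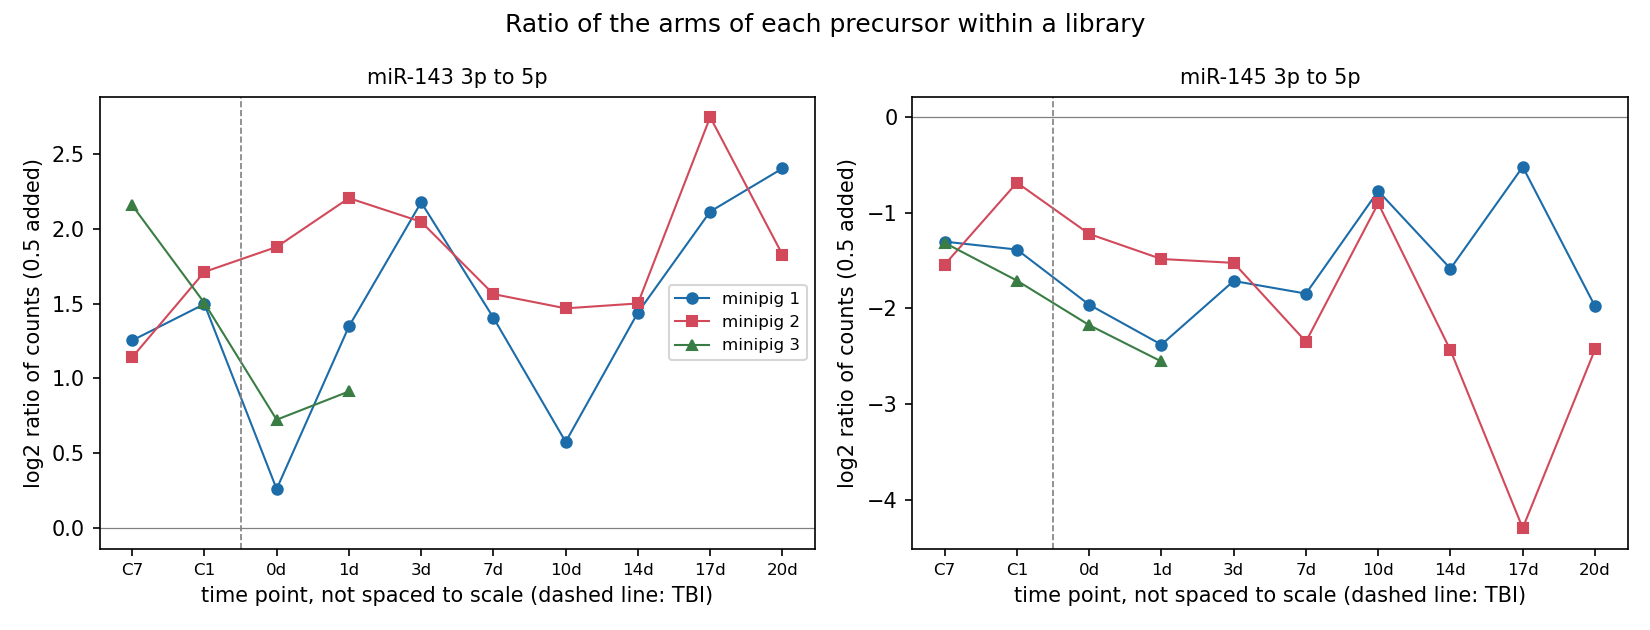
Log2 ratio of 3p to 5p counts (0.5 added to each) of miR-143 and miR-145, by time point in order but not to scale, 1 line per minipig; the dashed line marks TBI and the thin line equal arms. All miR-143 points lie above and all miR-145 points below equal arms, and minipig 2 at 17d is the lowest miR-145 point, from 1 count.

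The patterns of the 4 members were weakly alike. Over the 24 libraries the Spearman correlation of log2 CPM was 0.21 between the arms of miR-143 and 0.36 between the arms of miR-145, and 0.07 between both guide strands. After each value was centred on its minipig's mean, the arms of miR-143 correlated at 0.19 and those of miR-145 at 0.45. Among the 409 miRNAs with a mean of at least 10 counts, those whose pattern was most like ssc-miR-143-3p were ssc-miR-1839-5p (0.58), ssc-miR-218b (0.57), ssc-miR-218-5p and ssc-miR-218 (0.56 each, with identical counts) and ssc-miR-155-5p (0.56). For ssc-miR-143-5p they were ssc-miR-34c (0.64), ssc-miR-18a (0.59), ssc-miR-7 (0.57), ssc-miR-708-5p (0.56) and ssc-miR-324 (0.55). The closest to ssc-miR-145-3p were ssc-miR-9809-3p (0.85), ssc-miR-146a-5p (0.76), ssc-miR-9850-5p, ssc-miR-146b and ssc-miR-19a (0.74 each). Those closest to ssc-miR-145-5p were ssc-miR-361-3p (0.73), ssc-miR-9832-3p (0.65), ssc-miR-9835-3p, ssc-miR-676-5p and ssc-miR-193a-3p (0.62 each). No member was in another member's list, and the libraries share animals and depth, so these are descriptions only. After centring, ssc-miR-218b (0.68) was closest to ssc-miR-143-3p, ssc-miR-139-5p (0.59) to ssc-miR-143-5p, ssc-miR-9809-3p (0.89) to ssc-miR-145-3p and ssc-miR-361-3p (0.84) to ssc-miR-145-5p.

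Other miRNAs known to set the smooth muscle phenotype were read beside the members as a list of 14 listed miRNAs. By the adjusted test 1 of the 14 was called in any phase: ssc-miR-204, higher at Late by 3.91 on the log2 scale (SE 0.66, adjusted p 0.000656). By the same rule 4.38% of all miRNAs were called at Late and 0% at Early, Mid and LR. With scaling to library size only, 1 miRNA of the list was also called lower at Early. The share of all miRNAs called in that setting was not counted. In the main fit the list median was 0.13, 0.06, 0.19 and 0.35 in the 4 phases, against 0.02, 0.05, 0.08 and -0.01 over all miRNAs. With an unadjusted p under 0.05, 2 were higher and 2 lower at Early, 1 and 1 at Mid, 4 and 0 at Late and 1 and 1 at LR. The shares of all miRNAs higher and lower by the same rule were 5.11% and 13.6% at Early, 2.19% and 3.16% at Mid, 15.6% and 7.06% at Late and 3.65% and 1.95% at LR. In this list ssc-miR-222, known for smooth muscle growth, was higher by 0.57 at Mid, 0.79 at Late and 0.57 at LR, each with an unadjusted p under 0.05 only. Lower by this rule were ssc-miR-26a (-1.59, Mid), ssc-miR-1 (-1.41, Early, and -1.58, LR) and ssc-miR-221-5p (-2.10, Early). Also higher by it were ssc-miR-24-3p (0.53, Early), ssc-miR-133a-3p (0.46, Early), ssc-miR-24-2-5p (0.96, Late) and ssc-miR-26a (1.83, Late). The summed CPM of the list was 5718 to 9742 before TBI, 6150 to 11363 at Early and 6466 to 7533 at Mid. It was 11018 and 24045 at Late, and 7193 and 10472 at LR. Both Late libraries thus lay above the pre-TBI range, and so did the highest sums at Early and at LR. The mesenchymal and stromal list (8 miRNAs of fibroblast and mural cells) had 0 calls in any phase, adjusted or not. Its summed CPM of 5135 and 6050 at LR lay inside the pre-TBI range of 3341 to 6603. The sum left that range in other phases, with a highest value of 6812 at Early and a lowest of 2614 at Mid. The striated muscle list (8 miRNAs, partly the same as the smooth muscle list) had 0 adjusted calls in any phase of the main fit. With scaling to library size only, 1 of its miRNAs was called lower at Early. Its list medians were -0.40, -0.03, 0.39 and -0.48. With an unadjusted p under 0.05, 1 was higher and 2 lower at Early, 1 higher at Late and 1 lower at LR. Those outside the smooth muscle list were ssc-miR-208b (-1.99, Early) and ssc-miR-499-3p (0.92, Late).

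Blood and vessel markers were read in the same libraries. The erythroid list (3 miRNAs of red cells) summed to 8977 to 88288 CPM before TBI, 8359 and 10193 at Late and 10007 and 20063 at LR, with an unadjusted p under 0.05 only for ssc-miR-451, lower by -2.42 at Mid and -2.74 at Late. The endothelial list (both arms of miR-126, the main miRNA of vessel lining) summed to 688 to 1778 before TBI and to 2320 and 4208 at LR, above all pre-TBI libraries, while at Late it was 902 and 1068. The sum also passed the pre-TBI range in some libraries of other phases, reaching 3256 at Early and 1977 at Mid. For ssc-miR-126-5p the log2 change was 0.83 at Early and 1.75 at LR. In edgeR's quasi-likelihood test the unadjusted p values were 0.0320 and 0.00232, and the adjusted ones 0.230 and 0.337. Between these phases the 5p arm was lower, by -0.31 (Mid) and -1.05 (Late), neither with an unadjusted p under 0.05. The 3p arm had an unadjusted p under 0.05 in no phase. Its change was 0.24 for Early, 0.27 for LR, 0.52 for Mid and -0.12 for Late. The myeloid, platelet and leukocyte list held 3 miRNAs: ssc-miR-142-3p, ssc-miR-142-5p and ssc-miR-150. It was also set to hold miR-223, but no miRNA of that number was listed. The list summed to 1052 to 1979 before TBI and to 1061 and 1089 at LR. At Mid the sum was 653 to 998, below every pre-TBI library. At Early it ran from 903 to 2068, past both ends of the pre-TBI range. The 0 adjusted calls of this list stood beside 1 unadjusted one, ssc-miR-142-5p, lower by -1.73 at Mid. No miRNA of any list was at 0 in any library used. The part of these lists in the ssc-miR-143-3p levels was not tested.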

How the data were processed

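Plasma small RNA of 3 minipigs was sequenced at 10 time points, giving 30 libraries. The deposited values are raw counts per pig miRNA, without normalization. According to the methods of the study, the authors made the libraries with the TruSeq small RNA kit, used Cutadapt for trimming and Bowtie for alignment (pig build ssc5), and counted known miRNAs by miRDeep2, so reads that fit several loci could be split or shared between near-identical miRNAs. Only counts were used here.

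Members and lists were chosen with earlier results of these data known. Libraries under 1000 counts were left out. Counts were fitted with edgeR 4.0.16 (R 4.3.3; quasi-likelihood test, TMM, a filter of 0.5 CPM in 3 or more libraries that removed none of the 411 miRNAs, Benjamini-Hochberg over all 411) in 5 phase groups without an animal term, after the study's design, and in groups of single time points. Log2 CPM used a prior count of 2. The SE was the absolute log2 change divided by the root of F. Where the spread fitted was under that of Poisson counts, edgeR raises p alone, so p and SE need not match. Replicates are the minipigs, whose repeated libraries are not independent. They pair the libraries by design: deviations from phase means correlated at 0.159 on average within an animal (96 pairs) and at -0.148 between animals (180 pairs). Arm ratios were tested by exact two-sided permutation of time labels within each minipig (scipy 1.17.1). No 2 libraries agreed within sampling noise (lowest chi-square per degree of freedom 21.8). Named miRNAs are the members, the list members called, and the 5 closest by Spearman correlation. Alternatives were library-size scaling, RLE size factors, DESeq2 1.42.0, a fit of only the 2 groups compared, 1 in place of 0.5 added in the ratios, a minimum of 10 counts, no filter, a minipig block, other baselines, each minipig left out, and others added after seeing the data (libraries of at least 100000 counts, and without the smallest library). Only the fit by phase was checked on simulated data, with independent counts and no animal effect. Counting intervals cover counting error only. No precursor or mature sequences beyond the seeds were used here.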

Additional observations from a re-analysis of the deposited data

Results flagged for a closer look

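Of 24 groups of 4 to 10 libraries examined, 3 had a library far from the others, where chance gives about 1 in 20. The first was ssc-miR-143-3p at Mid, where minipig 2 at 10d had a log2 CPM of 10.43 against a median of 9.85 (n = 4), and the gap was 0.881 of the range. The second was the log2 ratio of miR-143 3p to 5p at Mid, where minipig 1 at 10d had 0.58 against a median of 1.45 (n = 4), a gap of 0.934 of the range. The third was the log2 ratio of miR-143-3p to miR-145-5p before TBI, where minipig 1 at C7, the smallest library, had -0.26 against a median of 1.33 (n = 6), a gap of 0.674 of the range.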

How the results depend on the processing

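None of the 484 fitted values of the members passed an adjusted p of 0.05 under any alternative (lowest 0.0967, for ssc-miR-145-3p at Late without minipig 2), and the minipig block changed no adjusted call; with the block, miR-143-3p at LR was 1.10 (unadjusted p 0.0191, adjusted 0.328). The following values turned sign. With scaling to library size only, miR-145-3p was -0.040 at Late and -0.035 at 17d, miR-143-3p -0.23 at 0d, and at C1 against C7 miR-143-3p was -0.037 and miR-143-5p -0.035. With DESeq2, miR-145-5p was 0.026 at Early, 0.064 at LR, 0.063 at 20d and 0.075 at 1d, and miR-143-3p -0.087 at 0d. With the block, miR-143-3p was -0.064 at 0d, -0.12 at 7d and -0.11 at 14d. With C1 as baseline, miR-145-5p was 0.012 at Early and 0.080 at LR. With libraries of at least 100000 counts, miR-145-5p was 0.047 at Early and 0.11 at LR, and at Mid miR-143-3p was -0.10 and miR-145-3p -0.91; Late has no such library. The cause was not tested.

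With 1 minipig or the smallest library left out, log2 changes by phase ranged for miR-145-5p from -0.33 to 0.095 at Early and -0.24 to 0.062 at LR, and for miR-145-3p from -0.032 to 0.72 at Mid and -3.27 to 1.61 at Late. By time point they ranged for miR-143-3p from -0.93 to 0.16 (0d), -0.063 to 0.0075 (7d) and -0.15 to 0.15 (14d), for miR-143-5p from -0.14 to 0.52 (3d), -0.059 to 0.20 (7d) and -0.019 to 0.35 (14d), for miR-145-5p from -0.52 to 0.072 (0d), -0.28 to 0.14 (1d), -0.13 to 0.44 (7d) and -0.10 to 0.27 (14d), and for miR-145-3p from -3.27 to 1.60 (17d). C1 against C7 ranged from -0.15 to 0.30 for miR-143-3p, -0.12 to 0.17 for miR-143-5p, -0.68 to 0.40 for miR-145-5p and -0.70 to 0.77 for miR-145-3p. Log2 ratio changes ranged from -0.55 to 0.21 (miR-143 arms, Early), -0.37 to 0.059 (miR-143 arms, Mid), -0.56 to 0.16 (miR-145 arms, Mid), -3.18 to 0.82 (miR-145 arms, Late), -0.11 to 0.60 and -0.11 to 0.28 (miR-143-3p to miR-145-5p, Early and Mid) and -0.17 to 0.65 (miR-143-5p to miR-145-5p, Mid). At Mid and Late, with 4 and 2 libraries of mostly low depth, counts of ssc-miR-145-3p limit what can be read.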

Other observations

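ssc-miR-143-5p and ssc-miR-145-5p had equal counts in 2 of the 24 libraries, both at 10d: 26 and 26 in minipig 1 and 21 and 21 in minipig 2. Within libraries, the ratio of ssc-miR-143-5p to ssc-miR-145-5p was 0.351 to 1.26 with a median of 0.962, so the passenger strand of miR-143 and the guide strand of miR-145 stood at similar counts. The ratio of both guide strands, ssc-miR-143-3p to ssc-miR-145-5p, was 0.838 to 6.25 with a median of 2.52.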
